A study of Mus musculus with 4 samples.

Results

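The 32 genes described here act in meiotic prophase and meiotic recombination. They were taken by symbol as a written list of synaptonemal complex, cohesin, recombination, telomere attachment and meiotic entry genes, and all 32 were found among the 54021 symbols of the count table. RNA-seq compared reconstituted ovaries (rOvaries) in 2 INK128-treated libraries (replicates 1 and 2) and 2 control libraries (replicates 1 and 3), each collected 1 month after transplantation. All recipients were second-generation telomerase-deficient (G2 Terc-/-) C57BL/6 females of 2 to 3 months at transplantation whose own ovaries had been removed, and they received aggregates of primordial germ cells and gonadal somatic cells from actin-GFP C57BL/6 fetuses, mixed at 1 to 6, beneath the kidney capsule. The treated recipients drank INK128, an inhibitor of the kinase mTOR, at 0.75 μM per g according to the labels, and the controls received none. The methods of the study word the dose differently, and the difference was not resolved here. The comparison addresses how mTOR inhibition changes gene expression in such grafts. The sources used here do not say whether the 2 libraries of a group came from separate recipients, so p-values measure the spread between these samples only. A graft collected from beneath the kidney capsule can carry recipient kidney, blood and stroma beside donor ovarian cells.

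In the female mouse, germ cells enter meiosis in the fetal ovary, where STRA8 acts in response to retinoic acid. SPO11 then makes DNA breaks, homologous chromosomes pair and are zipped together by the synaptonemal complex on an axis of meiotic cohesin, and DMC1 and its partners repair the breaks, partly as crossovers. Around birth the oocytes leave this phase and arrest, the synaptonemal complex is dismantled, and cohesin has to hold the chromosomes together until ovulation.

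The libraries held between 19130209 and 23029089 counts, and 3 counts, taken here as the floor, equalled 0.127 to 0.161 CPM (read counts scaled to library size with TMM factors), which covers counting error only. The libraries differed in their germ cell RNA. The 30 germ cell and oocyte markers summed to 2637 and 1912 CPM with INK128, to 1727 CPM in control replicate 1 and to 120 CPM in control replicate 3. Ddx4 (VASA), the germ cell helicase, was counted at 7.94 and 5.06 CPM with INK128, at 4.60 CPM in control replicate 1 and, in control replicate 3, 0.633 CPM. Both treated rOvaries were above both controls for 21 of the 28 such markers with a mean CPM above 1 and below both for 0, against 30.9% and 35.3% of all genes, with a median log2 ratio of 1.5, and control replicate 3 held little oocyte RNA. Control replicate 1 stood apart in another way, with 1021 counts of 4 Y-linked genes against 2, 0 and 0 in the other libraries and a sum over 13 Sertoli cell markers of 1572 CPM against 175 to 261 CPM, although the donor gonads were described as female. The 14 kidney markers summed to 572 and 1392 CPM in controls and to 88.8 and 160 CPM with INK128. Each result below is given with these libraries in view, and their part in it was not tested unless a value is stated. In bulk RNA, fewer germ cells and less RNA per germ cell cannot be told apart.

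Only 6 members reached a mean CPM of 10 by library totals, the study's limit. With edgeR's quasi-likelihood test 0 of these 6 were called between the groups (adjusted p under 0.05, change over 1.5-fold), and among all 11758 genes past that limit 3.18% were called higher and 3.19% lower with INK128. At an unadjusted p below 0.05, 2 of the 6 (Sycp3 and Rec8) passed, both lower with INK128, against 18.7% of all tested genes in that direction and 17.7% in the other. Both had a mean below 10 CPM with INK128 and passed the limit through the controls, so their direction is no support for a difference. DESeq2 called 1 of the 6, Rec8, with 15.1% of tested genes called lower and 13.6% higher, and limma voom called 0% of all genes. At an unadjusted p below 0.05 voom took 2 of the 6 (Sycp3 and Syce2), and 2151 of the 11758 genes higher and 1828 lower. A further 6 members lay between a mean CPM of 1 and 10. Among them, Sycp2, Msh5 and Terb1 had a control mean below 1 CPM, and Tex14 a treated mean below 1 CPM. They passed the limit of 1 CPM through their higher group, so their direction is no support for a difference. When all 17631 genes over a mean CPM of 1 were tested, edgeR called 0% in either direction, so that its 0 of 12 members says nothing about them, and at an unadjusted p below 0.05 it took 1 of 12 members (Rec8) against 17.8% of all genes lower and 15.1% higher. In this set DESeq2 called 1 of 12 (Rec8), with 13.6% of genes lower and 10.2% higher. The log2 ratios of INK128 to control, their standard errors (SE) and the adjusted p-values given below come from this wider edgeR fit unless another is named. Leaving out 1 control changed the calls. Above 10 CPM, 1 member was higher and 2 lower without control replicate 1, where 22.7% of all genes were called higher and 23.2% lower, and 1 higher and 3 lower without control replicate 3 (21.2% and 21.4%). Above 1 CPM, 3 were higher and 1 lower without control replicate 1 (21.6% and 23.4% of all genes), and 1 higher and 4 lower without control replicate 3 (19.4% and 21.5%). Testing all 31483 genes with at least 1 count gave 0 of 31 members higher and 1 lower (Rec8), with 3.66% and 6.2% of genes called. At an unadjusted p below 0.05 that fit took 5 of the 31 (Sycp3, Syce2, Tex15, Rec8 and Mei1), and 2938 genes higher and 4432 lower. The other 20 members had a mean CPM of 1 or less and entered no fit but this one, which took 19 of them. Of these, 1 (Stra8) had no count in any library, and the rest summed to 1 to 84 counts over the 4 libraries.

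**Figure D1:**
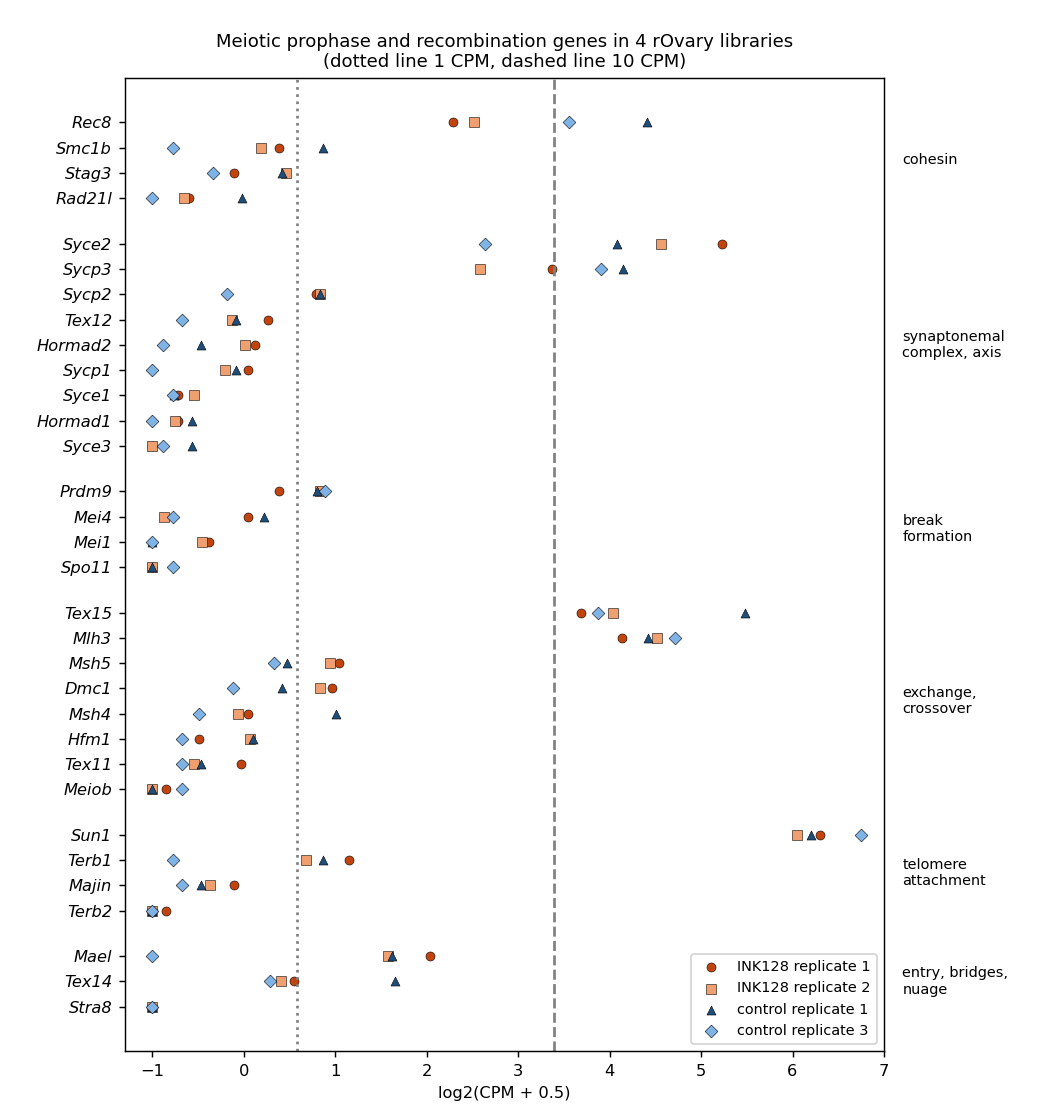
Level of each of the 32 members, as log2(CPM + 0.5) on the horizontal axis, in each of the 4 libraries, with genes grouped by role and ordered by mean level. Rec8, Syce2, Sycp3, Tex15, Mlh3 and Sun1 lie around or right of the dashed line at 10 CPM, and control replicate 3 (light blue diamonds) is the lowest library for 13 of the 19 counted members with a mean CPM of 1 or less.

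Several of these genes share sequence elements at their promoters, and the stretches of 5 of them are shown because they hold the letters that recur among the members. RefSeq promoter windows (250 bases before to 50 after a transcript start, build GRCm38.p6) were found for 26 of the 32 members. CACGTG, the E-box bound by basic helix-loop-helix proteins such as MAX and its partner MGA, was present in 7 of the 26 (26.9%) and in 8.09% of all 27025 genes with a window. GCGGGAA, an E2F-type site, was present in 9 of the 26 (34.6%) and in 5.29% of all genes. Both strands were searched, and in the members no match of one motif overlapped a match of the other. The 5 members with both motifs in 1 window were Hormad1, Stag3, Syce2, Sycp3 and Tex12, whereas 0.514% of all genes had both. TGACGTCA, the full cyclic AMP response element, was in 0 of the 26 and in 2.03% of all genes. A match describes letters and not a bound site. The stretches are printed 5′ to 3′ along the gene, up to 180 bases before the start and without annotated exon bases, with E-box and E2F letters in capitals.
Sycp1, chr3:102936101-102936280, minus strand: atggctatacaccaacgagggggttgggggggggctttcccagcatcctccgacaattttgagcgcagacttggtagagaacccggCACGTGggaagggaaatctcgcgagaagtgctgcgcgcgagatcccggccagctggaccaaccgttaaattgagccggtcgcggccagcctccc
Hormad1, chr3:95559497-95559676, plus strand: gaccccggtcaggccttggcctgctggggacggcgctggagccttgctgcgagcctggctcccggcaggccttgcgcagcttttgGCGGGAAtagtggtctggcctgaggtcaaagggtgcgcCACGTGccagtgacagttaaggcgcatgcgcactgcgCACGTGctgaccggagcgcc
Tex12, chr9:50561326-50561448, minus strand: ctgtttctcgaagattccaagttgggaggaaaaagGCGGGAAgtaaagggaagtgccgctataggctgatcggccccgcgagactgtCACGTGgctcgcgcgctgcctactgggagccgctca
Smc1b, chr15:85131965-85132137, minus strand: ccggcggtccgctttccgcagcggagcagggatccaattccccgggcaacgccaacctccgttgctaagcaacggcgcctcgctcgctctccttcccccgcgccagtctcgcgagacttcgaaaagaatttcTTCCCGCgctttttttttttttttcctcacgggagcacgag
Sycp3, chr10:88459407-88459568, plus strand: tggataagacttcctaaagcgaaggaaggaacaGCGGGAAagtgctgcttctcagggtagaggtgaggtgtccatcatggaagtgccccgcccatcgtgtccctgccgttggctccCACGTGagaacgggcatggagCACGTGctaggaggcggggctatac
In Smc1b the capitals read TTCCCGC, the E2F letters on the opposite strand. The E-box lay 94 bases before the start in Sycp1 and 93 bases before it in Tex12. Sycp3 had 2 E-boxes, 64 and 43 bases before the start.

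**Figure D2:**
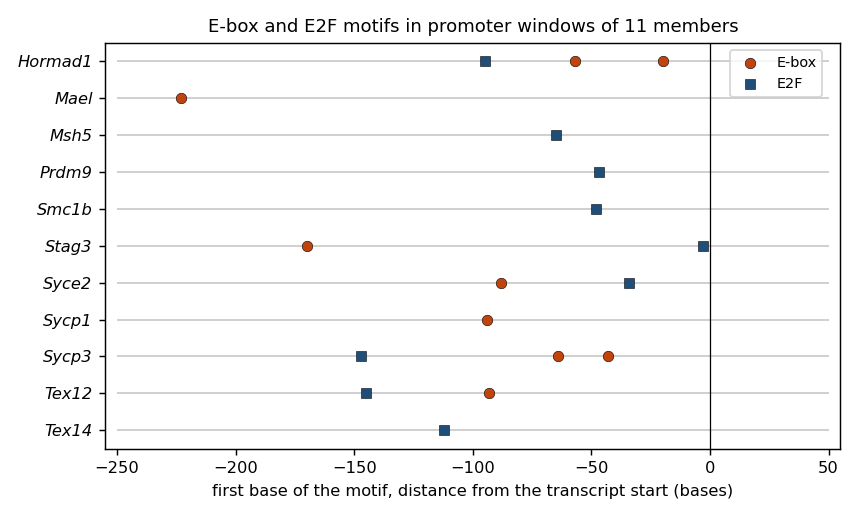
Positions of the E-box (circles) and E2F (squares) letters in the promoter windows of the 11 members that hold at least 1 of them, as distance in bases from the transcript start (0). Every match begins before the start, from 223 to 3 bases upstream, the E2F letters of Stag3 run across it, and for Hormad1 the first of its near-identical windows is drawn.

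Cohesin rings hold sister chromatids together, and in meiosis REC8, RAD21L, SMC1B and STAG3 replace or join the somatic subunits. Rec8, the meiotic kleisin (the subunit that closes the ring), lay closest to a call of all members. Rec8, on mm10 chromosome 14 from 55618037 to 55625395, had 4.40 and 5.24 CPM with INK128, 20.7 CPM in control replicate 1 and, in control replicate 3, 11.3 CPM. Both treated rOvaries were thus below both controls, as in 35.3% of all genes with a mean CPM above 1. The treated mean was 4.82 ± 0.596 CPM and the control mean 16.0 ± 6.69 CPM (SD, n = 2 each). The log2 ratio was −1.67 (SE 0.42, edgeR adjusted p = 0.0778), and −1.73 with an adjusted p of 0.065 among genes above 10 CPM. DESeq2 gave −1.68 with an adjusted p of 0.00822. It made a larger share of false calls than edgeR on simulated data. Those data had the same spread in both groups, unlike these libraries, so that share cannot be carried over to Rec8. Without control replicate 1 the edgeR value was −1.17 (adjusted p = 0.0117) and without control replicate 3 it was −2.05 (adjusted p = 7.42e-05). Without INK128 replicate 1 or 2 it was −1.57 or −1.83 (adjusted p = 0.454 or 0.48), in fits where edgeR called 0% of all genes.

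The other meiotic cohesin genes were weakly counted. Smc1b, the meiotic SMC1 subunit, had 15 and 14 counts with INK128, 30 in control replicate 1 and 2 in control replicate 3. Stag3, the meiotic STAG subunit, had 8 and 19 counts with INK128 against 19 and 7 in controls. Rad21l, another meiotic kleisin, had 3 and 3 counts with INK128, 11 in control replicate 1 and 0 in control replicate 3. These genes were lowest in control replicate 3 and did not separate the groups. Per kb of exon, Rec8 stood at 4.06% and 5.12% of the level of its somatic counterpart Rad21 with INK128 and at 14.5% and 7.15% in controls. Smc1b stood at 1.12% and 0.927% of Smc1a with INK128, at 1.99% in control replicate 1 and at 0.103% in control replicate 3. Stag3 was between 0.253% and 1.36% of Stag2 and between 0.670% and 3.35% of Stag1 in the 4 libraries. Of 13 genes of somatic cohesin and its regulators, edgeR called 0 in either direction and DESeq2 3 lower, against 15.1% of all genes above 10 CPM. In the wider edgeR fit 4 were lower at an unadjusted p below 0.05 (17.8% of all genes), and 10 of the 13 had both treated rOvaries below both controls (35.3% of all genes). Rad21, the somatic kleisin, had 156 and 148 CPM with INK128 against 206 and 227 CPM in controls, a log2 fold change of −0.51 with an adjusted p of 0.112 in edgeR above 10 CPM. Smc1a overlapped between the groups, at 103 and 99.0 CPM with INK128 and 94.9 and 117 CPM in controls.

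**Figure D3:**
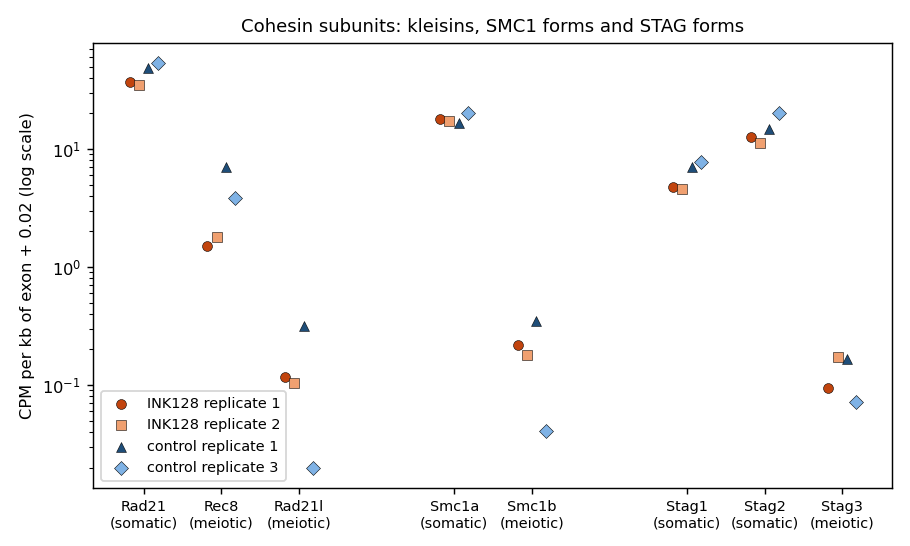
CPM per kb of exon (plus 0.02, logarithmic vertical axis) of the somatic and meiotic forms of the kleisin, SMC1 and STAG subunits of cohesin in the 4 libraries. Rec8 is the one meiotic form above 1 CPM per kb, with both controls above both treated rOvaries, while Rad21l, Smc1b and Stag3 lie lowest in control replicate 3.

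The synaptonemal complex genes divided into 2 well counted members and 7 weak ones. Syce2, a central element protein, was on chromosome 8 from 84872111 to 84888221. It had 36.9 and 23.2 CPM with INK128, 16.4 CPM in control replicate 1 and, in control replicate 3, 5.74 CPM. Both treated rOvaries lay above both controls, as in 30.9% of all genes with a mean CPM above 1, and the order of the libraries was that of the oocyte marker sum. The treated mean was 30.1 ± 9.72 CPM and the control mean 11.1 ± 7.56 CPM (SD, n = 2 each), giving a log2 ratio of 1.49 (SE 0.58, edgeR adjusted p = 0.157). Relative to Ddx4 of the same library, Syce2 CPM were 4.65 and 4.58 times Ddx4 with INK128, 3.57 times in control replicate 1 and 9.07 times in control replicate 3, where Ddx4 rested on 15 counts. Without control replicate 1 the log2 ratio was 2.44 and without control replicate 3 it was 0.92, each resting on the 1 control left.

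Sycp3, the axial element protein that coats meiotic chromosome axes, ran the other way. Sycp3, on chromosome 10 from 88459569 to 88473236, had 9.88 and 5.47 CPM with INK128 and 17.3 and 14.5 CPM in controls. Both treated rOvaries were below both controls, as in 35.3% of all genes with a mean CPM above 1. The treated mean was 7.68 ± 3.11 CPM and the control mean 15.9 ± 1.98 CPM (SD, n = 2 each), giving a log2 ratio of −0.99 (SE 0.40, edgeR adjusted p = 0.162). The ratio was −1.5 without INK128 replicate 1 and −0.65 without INK128 replicate 2. Without control replicate 1 it was −0.87 and without control replicate 3 it was −1.12, each resting on the 1 control left. A second gene, Chpt1, which encodes cholinephosphotransferase, lies on the opposite strand and shares 660 exon bases with Sycp3, 52.2% of the exon bases of Sycp3. Neither the library kit nor the counting is stated to keep strand, so reads of the shared part cannot be assigned to 1 of the genes. Chpt1 had 59.5 and 63.7 CPM with INK128 and 190 and 178 CPM in controls, and edgeR called it lower above 10 CPM (log2 ratio −1.58, adjusted p = 0.0464). Per 100 Chpt1 counts there were 16.6 and 8.59 Sycp3 counts with INK128 and 9.11 and 8.11 in controls. INK128 replicate 1 had the highest ratio, and the other libraries lay between 8.11 and 9.11. Whether the Sycp3 difference came from Chpt1 reads was not tested.

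Sycp2, the partner of SYCP3 in the axis, had 1.23 and 1.29 CPM with INK128, 1.28 CPM in control replicate 1 and, in control replicate 3, 0.380 CPM. Its log2 ratio was 0.65 (SE 0.81, edgeR adjusted p = 0.591), and it was 1.77 (adjusted p = 0.0645) without control replicate 1 and 0.029 without control replicate 3. The transverse filament gene Sycp1 had 10 and 8 counts with INK128, 10 in control replicate 1 and 0 in control replicate 3. Control replicate 1 was at least 3.50-fold above control replicate 3 at a floor of 3 counts in the latter. The central element gene Tex12 had 13 and 9 counts with INK128 against 10 and 3 in controls. Hormad2, which marks unsynapsed axes, had 11 and 11 counts with INK128 against 5 and 1 in controls. Hormad1 and the central element genes Syce1 and Syce3 had 0 to 4 counts in every library and no group difference could be read at this depth. Sycp1, Sycp2 and Tex12 were thus lowest in control replicate 3, the library with little oocyte RNA.

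The genes of break formation were near the floor. Spo11, the enzyme that cuts the DNA, had 0, 0 and 0 counts in the first 3 libraries and 2 in control replicate 3. Mei1 had 5 and 5 counts with INK128 and 0 in both controls, and was among the members at an unadjusted p below 0.05 in the edgeR fit of all counted genes, where it was not called. Mei4, a partner of the break machinery, had 10 and 1 counts against 15 and 2. Prdm9, the histone methyltransferase that places the breaks, was the 1 member of this group with a mean CPM above 1. It had 0.805 and 1.29 CPM with INK128 and 1.24 and 1.35 CPM in controls, giving a log2 ratio of −0.25 (SE 0.62, edgeR adjusted p = 0.793). Control replicate 3 held as much Prdm9 as the libraries with oocyte RNA, at 32 counts against 15 to 28.

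Among genes of strand exchange and crossing over, Mlh3 and Tex15 were the best counted. Mlh3, a mismatch repair protein of crossover sites, had 17.1 and 22.5 CPM with INK128 and 20.9 and 25.8 CPM in controls. The groups overlapped, and the log2 ratio was −0.19 (SE 0.27, edgeR adjusted p = 0.648). Tex15, which is needed for break repair in male meiosis and for transposon silencing, had 12.3 and 15.9 CPM with INK128, 44.3 CPM in control replicate 1 and, in control replicate 3, 14.1 CPM. Control replicate 3 lay between the 2 treated rOvaries, and control replicate 1, the library with Y-linked and Sertoli cell transcripts, held 3.13 times its level. The log2 ratio was −0.99 (SE 0.58, edgeR adjusted p = 0.289), but 0.054 without control replicate 1 and −1.59 (adjusted p = 0.000107) without control replicate 3.

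Msh5, which with MSH4 stabilizes crossover intermediates, had 1.56 and 1.43 CPM with INK128 and 0.885 and 0.759 CPM in controls. Both treated rOvaries were above both controls, as in 30.9% of all genes with a mean CPM above 1, and the log2 ratio was 0.91 (SE 0.59, edgeR adjusted p = 0.329). The control mean of Msh5 was 0.822 CPM. It passed the limit of 1 CPM through the treated rOvaries, so its direction is no support for a difference. Msh4 was highest in control replicate 1, with 34 counts against 10 and 10 with INK128 and 5 in control replicate 3. Dmc1, the meiotic recombinase, had 27 and 28 counts with INK128 and 19 and 10 in controls. The helicase gene Hfm1 had 4 and 12 counts against 13 and 3, and Tex11, a crossover protein on the X chromosome, had 9 and 4 against 5 and 3. Meiob, which binds single-stranded DNA with its partners, had 0 to 3 counts in every library. The 2 MutS partners thus differed in their order over the libraries. Msh5 did not pass the test, and Msh4 was below its limit on CPM.

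SUN1, MAJIN, TERB1 and TERB2 attach telomeres to the nuclear envelope in prophase, and SUN1 also serves somatic nuclei. Sun1 accounted for 34.6% to 58.2% of the summed CPM of the 32 members in the 4 libraries. It had 78.6 and 65.9 CPM with INK128 and 73.0 and 107 CPM in controls, giving a log2 ratio of −0.26 (SE 0.25, edgeR adjusted p = 0.494), and its groups overlapped. Terb1 had 1.72 and 1.10 CPM with INK128, 1.33 CPM in control replicate 1 and, in control replicate 3, 0.0843 CPM (2 counts). Its log2 ratio was 1.05 (SE 1.23, edgeR adjusted p = 0.572), and it moved between 4.02 (adjusted p = 0.00427) without control replicate 1 and 0.13 without control replicate 3. Majin had 8 and 6 counts with INK128 and 5 and 3 in controls, and Terb2 had 1 count in all. Sun1, the gene shared with somatic cells, was therefore highest in the library with the least oocyte RNA, and Terb1 lowest there.

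Stra8, the gate of meiotic entry, had 0 counts in each of the 4 libraries, which at the floor allows up to 0.127 to 0.161 CPM. Mael, a protein of the nuage that represses transposons in germ cells, had 3.60 and 2.48 CPM with INK128, 2.57 CPM in control replicate 1 and, in control replicate 3, 0 CPM. In counts these were 67, 54, 58 and 0, so control replicate 1 was at least 20.3-fold above control replicate 3. Its log2 ratio between the groups was 1.30 (SE 1.70, edgeR adjusted p = 0.613) and 0.29 without control replicate 3. Per Ddx4 count there were 0.453 and 0.491 Mael counts with INK128 and 0.558 in control replicate 1. In control replicate 3 the ratio was 0, where Ddx4 rested on 15 counts. Tex14, a protein of the bridges between germ cells, had 0.966 and 0.828 CPM with INK128, 2.66 CPM in control replicate 1 and, in control replicate 3, 0.717 CPM. Its log2 ratio of −0.85 (SE 0.83, edgeR adjusted p = 0.5) became 0.37 without control replicate 1 and −1.51 (adjusted p = 0.0458) without control replicate 3.

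**Figure D4:**
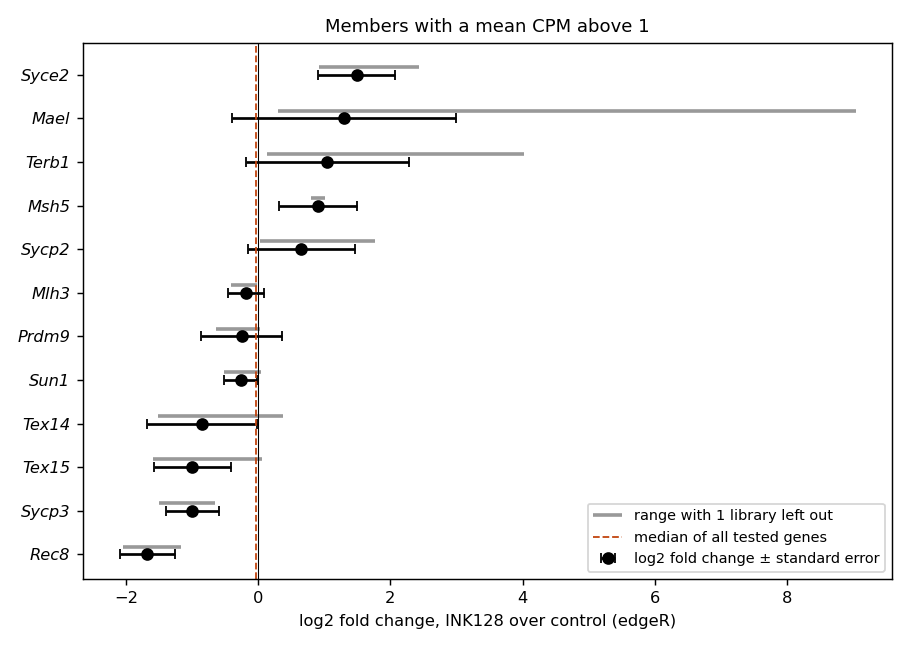
Log2 ratio of INK128 to control from edgeR for the 12 members with a mean CPM above 1, with standard errors (bars) and the range when each library was left out in turn (grey). This fit called 0 of 17631 genes, so no call among the members could be read from it, and Rec8 at −1.67 and Syce2 at 1.49 lie farthest from 0, and the long range of Mael ends where the remaining control is at 0 counts.

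The 2 controls were compared member by member, since they differ more from each other than the treated rOvaries do. Over the 11758 genes above 10 CPM, log2 CPM of the controls had a Pearson correlation of 0.806 across genes, and that of the treated rOvaries 0.98. Control replicate 1 was more than 2-fold above control replicate 3 in 6 of the 12 members with a mean CPM above 1, against 12.1% of all such genes, and the reverse held for 0 members and 11.4% of genes. Above 10 CPM this was so for 2 of 6 members (Syce2 and Tex15) and 7.46% of genes, with 0 members and 6.73% of genes in reverse. In the same sense 27 of 28 germ cell and oocyte markers with a mean CPM above 1 were more than 2-fold higher. Of the 12 members, control replicate 3 was the lowest library for 6 (Sycp2, Syce2, Tex14, Msh5, Mael and Terb1), against 28.2% of all such genes. Of the 19 counted members below that level it was the lowest for 13, against 15.8% of all genes with at least 1 count and a mean CPM of 1 or less. Lowest meant strictly below every other library. Genes with few reads can tie at no count, which lowers the share over all genes. That share is therefore no like-for-like background for these members. Control replicate 1 was the highest library for 4 of the 12 (Sycp3, Tex14, Tex15 and Rec8), against 26.6%. For Sycp3, Mlh3, Prdm9, Msh5 and Sun1, control replicate 3 stood at or near the level of control replicate 1, with ratios of control replicate 1 to 3 of 1.19, 0.808, 0.919, 1.17 and 0.684.

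**Figure D5:**
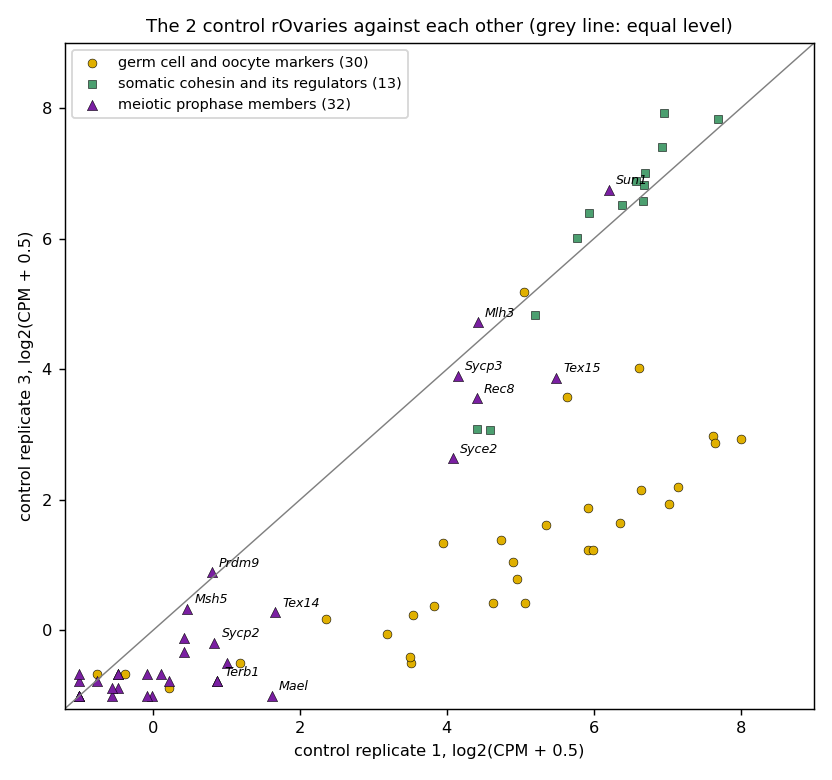
Level in control replicate 1 (horizontal) against control replicate 3 (vertical), both as log2(CPM + 0.5), of the 32 members (purple triangles), 30 germ cell and oocyte markers (yellow circles) and 13 genes of somatic cohesin and its regulators (green squares). Oocyte markers lie far below the line of equal level, Mael and Terb1 lie below it with them, and Sun1, Mlh3, Sycp3 and Prdm9 lie close to it.

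Summed over the 32 members, CPM were 177 and 153 with INK128 and 211 and 184 in controls. Without Sun1 the sums were 98.0 and 87.0 CPM with INK128 and 138 and 76.7 CPM in controls, so the groups overlapped. The 20 members with a mean CPM of 1 or less summed to 139 and 136 counts with INK128, to 186 counts in control replicate 1 and to 47 counts in control replicate 3. Relative to Ddx4, their summed CPM were 0.939 and 1.24 times Ddx4 with INK128, 1.79 times in control replicate 1 and 3.13 times in control replicate 3. The median log2 fold change of the 12 tested members was −0.22, and that of all 17631 genes −0.04.

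A further written list of 54 meiotic and recombination genes gave 24 members above a mean CPM of 10, of which edgeR called 0 higher and 1 lower, against 3.18% and 3.19% of all genes. The one called was Atm, the kinase that answers DNA breaks, with 2.79 and 3.77 CPM against 15.6 and 26.0 CPM and a log2 ratio of −2.66 (SE 0.41, edgeR adjusted p = 0.0464 above 10 CPM). Atm passed that limit through the controls, and in the wider edgeR fit it was not called (adjusted p = 0.0558). DESeq2 called 3 of the 24 higher and 2 lower, against 13.6% and 15.1% of all genes, and in the wider edgeR fit 6 of 42 were higher and 2 were lower by unadjusted p under 0.05 (15.1% and 17.8% of all genes). EdgeR called 0 of the 24 germ cell and oocyte markers above 10 CPM, DESeq2 called 0, and above 1 CPM 0 of 28 had an unadjusted p below 0.05 in edgeR. EdgeR also called 0 of 4 male germ cell, 8 Sertoli cell and 8 granulosa cell markers above 10 CPM. DESeq2 called 0 of these male germ cell markers, 3 Sertoli cell markers lower and 1 granulosa cell marker higher, and above 1 CPM 1 marker of each list had an unadjusted p below 0.05 in edgeR. The protamine and transition protein genes of spermatids (Prm1, Prm2, Tnp1 and Tnp2) were each below 0.5 CPM in every library. Of the 13 male germ cell markers with a mean CPM above 1, 7 were highest in control replicate 1. The share over all such genes was 26.6%. Among them, Gfra1 had 26.5 CPM there, against 3.22 and 3.04 CPM with INK128 and 1.35 CPM in control replicate 3. Of 11 kidney markers above 10 CPM edgeR called 5 lower with INK128, against 3.19% of all genes (Slc34a1, Lrp2, Cubn, Slc22a6 and Slc5a2, with log2 fold changes of −4.67, −4.37, −4.35, −4.11 and −2.05). Lrp2, Cubn and Slc22a6 had treated means of 3.60, 1.07 and 1.94 CPM. These 3 passed the limit of 10 CPM through the controls, so their calls are no support for a difference. The wider edgeR fit called 0 of 14 kidney markers and 0% of all genes. Of all 14 kidney markers, 12 had both treated rOvaries below both controls, against 35.3% of all genes above 1 CPM. The part of kidney cells in the Rec8 and Sycp3 values was not tested.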

How the data were processed

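The rOvaries' RNA was sequenced from libraries made with the NEBNext Ultra kit. Per the paper's methods and the submitters' processing notes, the authors used Trimmomatic for trimming, HISAT2 for alignment to mm10 and featureCounts for counts per gene (versions not given in the sources used here), and deposited raw read counts for 54021 symbols without normalization or pooling. Library totals were 19130209 to 23029089. CPM were computed here with TMM factors (edgeR 4.0.16, R 4.3.3). Groups came from the labels, and the main test was the quasi-likelihood test of edgeR with Benjamini-Hochberg adjustment over all genes with a mean CPM above 10 (11758) or above 1 (17631), filtered by library totals. A call needed an adjusted p under 0.05 and a change over 1.5-fold, the study's limits. Standard errors come from the fold change and its F statistic, and log2 CPM in plots used a pseudocount of 0.5. With 2 libraries per group an exact permutation test cannot give a two-sided p below 0.333. Positions, exon lengths and overlaps are from GENCODE release M21 (mm10), and promoters from RefSeq on GRCm38.p6. Alternatives were DESeq2 1.42.0, limma 3.58.1 (voom), other scalings, exon length offsets, other filters, no fold change limit and leaving out each library. The tests were tested on simulated data with large changes only, where DESeq2 made a larger share of false calls than edgeR or voom. The simulation gave every gene and both groups the same spread, which the libraries here do not have. All members are described. The members and lists were chosen with earlier results of these data known.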

Additional observations from a re-analysis of the deposited data

How the results depend on the processing

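EdgeR called 0 members in either direction. Above 1 CPM it called 0% of all genes, also with other scalings, and so at both limits did limma voom, exon length offsets and leaving out either INK128 library, so those counts of 0 say nothing about the members. Among genes above 10 CPM, DESeq2 called 1 member lower (Rec8), and among genes above 1 CPM it called 1 lower (Rec8), as did edgeR without a filter beyond 1 count (1 lower, Rec8, adjusted p = 0.0315). Leaving out each library gave 0 to 1 members higher and 0 to 3 lower above 10 CPM, and 0 to 3 higher and 0 to 4 lower above 1 CPM. The calls came when a control was left out, where 1 control was left and assumed to vary like the treated rOvaries: above 1 CPM, without control replicate 1, Syce2 (2.44), Mael (9.04, a fitted value against a control at 0 and no bound) and Terb1 were called higher and Rec8 lower, and without control replicate 3, Syce2 was called higher and Sycp3 (−1.12), Tex14, Tex15 and Rec8 lower. Above 10 CPM, Sycp3 was called lower with either control left out. With 1 library left out, signs changed for Tex14 (−1.51 to 0.37) and Tex15 (−1.59 to 0.054, above 0 without control replicate 1 for both), Prdm9 (−0.64 to 0.033, above 0 without INK128 replicate 1) and Sun1 (−0.51 to 0.038, above 0 without control replicate 3), and with exon length offsets for Mlh3 (0.28) and Sun1 (0.20), where the median of all genes was 0.15. Scaling by library totals alone moved the median of all genes to −0.21 and turned no member's sign. The members' median of −0.22 was 0.24 with length offsets, 0.20 without a filter (31 members) and −0.68 above 10 CPM (6 members), and ranged from −0.28 to 0.21 with 1 library left out. The causes were not tested. The log2 ratio of the members' summed CPM was −0.26 and ranged from −0.38 to −0.16 over the alternatives. No paired analysis was possible because the groups compared share fewer than 2 replicate numbers. Depth limits the 20 members with a mean CPM of 1 or less.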
